A study of Mus musculus with 39 samples.

Results

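Severe presbycusis, the advanced form of hearing loss with age, was compared with good hearing in middle-aged mice in the inferior colliculus, the auditory centre of the midbrain. The comparison takes the 5 arrays labelled severe presbycusis and the 17 arrays of the middle-aged group, 22 of the 39 arrays of the study, and covers all 22626 probe sets (sets of short probes for a transcript). Members were chosen by the hearing label alone. The severe group held 4 females and 1 male, and the middle-aged group 10 mice labelled female and 7 labelled male. All were CBA/CaJ mice, an inbred strain that keeps good hearing well into adult life, bred in house and left to age without treatment. Each array held total RNA of the inferior colliculus of 1 mouse. The study also has 9 mice with mild presbycusis (4 females, 5 males) and 8 young controls (4 of each sex), which entered the statistical model and serve here as further points of comparison. No age of a mouse was available, so hearing and age cannot be told apart, and CBA/CaJ mice with severe loss stand for normal ageing in 1 strain only.

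Microglia are the resident immune cells of brain tissue. They sense damage through surface receptors, engulf material and digest it in lysosomes, and they are the main source of complement C1q in the brain. Astrocytes that respond to injury build more intermediate filament, of which Gfap and vimentin are the best known proteins. Type I interferons act on many cell types and raise a set of genes for viral defence and for presentation of peptides on MHC class I molecules.

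Values are linear array intensities, and each difference is severe minus middle-aged on the log2(intensity + 16) scale with its standard error (SE) from a limma model with sex as a covariate. A probe set was called when its p-value, adjusted by Benjamini-Hochberg over all 22626 probe sets, was under 0.05. The added 16 understates the change of dim probe sets. The p-values rest on the spread between single mice, and the 5 severe arrays limit the precision. The model assumes equal spread in all groups. The log2 standard deviation was larger in severe than in middle-aged mice for Clec7a (0.71 against 0.25), Mpeg1 (1.08 against 0.53) and Lyz1 (1.61 against 0.63). It was smaller for C1qc (0.24 against 0.42) and Serpina3n (0.94 against 1.3). Where severe mice varied more, the SE and p-value understate the spread between them. Severe arrays had median intensities of 150 to 203 and middle-aged arrays 168 to 211. The log2 ratio of 3' to 5' Gapdh control probes, a sign of RNA quality, was 1.46 to 2.92 on severe and 1.25 to 3.64 on middle-aged arrays. For the actin control it was 1.94 to 2.83 and 1.71 to 2.58, with severe replicate 3 above every middle-aged array. With both ratios as covariates 95 probe sets were called higher. One library goes against its sex label. Middle-aged replicate 4, labelled female, read 373 for the X-linked transcript Xist and 655 for the Y-linked gene Eif2s3y, against 2541 to 8424 and 1.25 to 10.6 in the 21 other females and 238 to 495 and 297 to 1161 in the 17 males. Without it 97 probe sets were called higher, against 109 with it. The label of replicate 4 was kept, so this mouse counts as female in the sex covariate and in every set of middle-aged females.

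In severe presbycusis 109 probe sets were called higher (0.482% of those tested) and 1 was called lower (0.00442%). Their rises ran from 0.44 to 3.71, with a median of 0.99, while the median over all probe sets was -0.03. Of the 109, 97 carry a single gene symbol and name 86 genes. Among the brighter 60% of probe sets, the genes with the largest rises were lysozyme Lyz1, the macrophage perforin Mpeg1, the poly(A) polymerase Tent5c, the MHC class I chain H2-D1 and the pattern receptor Clec7a. Without adjustment 1338 probe sets had p under 0.05, 721 of them higher and 617 lower. The tissue was measured in bulk, so more cells of a type and more RNA per cell cannot be told apart.

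**Figure D1:**
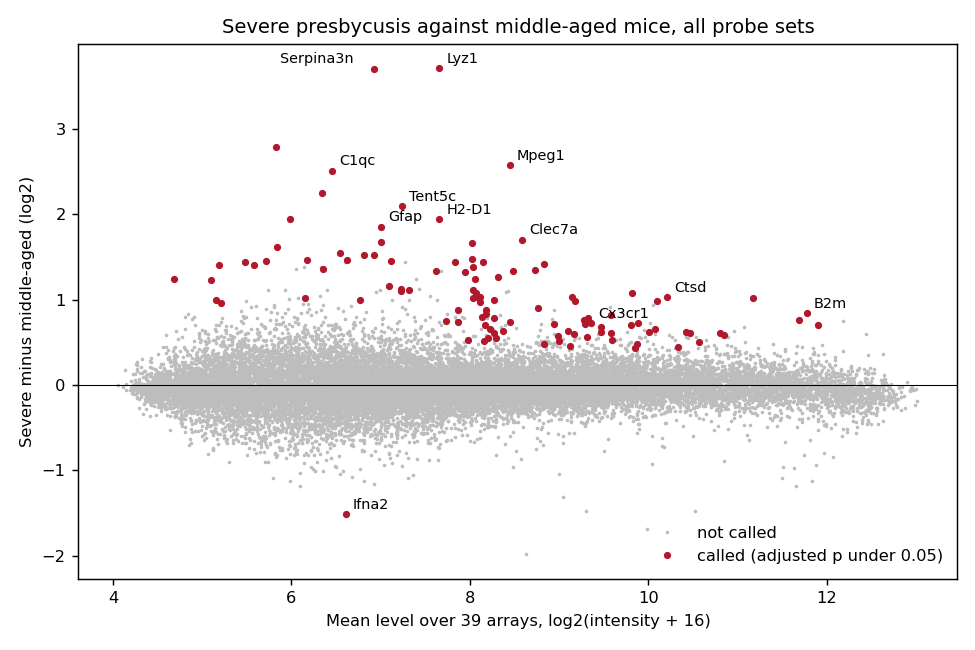
Difference between severe presbycusis and middle-aged mice (y axis, log2) against mean level over 39 arrays (x axis, log2(intensity + 16)) for 22626 probe sets, with called ones in red. The red points lie above 0, up to 3.71 for Lyz1, except Ifna2 at -1.51.

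The 3 genes taken as markers of the comparison were all called higher. Clec7a, the receptor dectin-1 that binds fungal glucans and is raised in microglia around damage, read 1244, 1250, 1415, 418 and 1203 in severe mice 1 to 5, against 201 to 412 with a median of 283 in middle-aged mice. All 5 severe mice lay above every middle-aged mouse, replicate 4 by a small margin. The difference was 1.70 ± 0.16 (SE), a 3.25-fold rise (adjusted p = 1.2e-08). Gfap and Vim are described with the astrocyte genes below.

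Genes of phagocytes formed the largest block. Of 28 measured genes of macrophages and the leukocyte surface, 10 were called higher and 18 were not called, and the list median was 0.31, against -0.03 over the 12393 genes measured, of which 78 (0.629%) were called higher on their brightest probe set. The summed intensity of the 28 genes was 6354 to 14719 in severe mice and 4641 to 5731 in middle-aged mice, without overlap. Such a sum gives most weight to genes of high intensity, among them Lyz1 and Mpeg1 in the severe females. Of 23 genes of activated microglia 9 were called higher, with a list median of 0.70 and 20 of 23 above 0. Over all 12393 genes 44.3% lay above 0, the share to set beside such counts here and below. Genes of microglia identity moved less, with 2 of 14 called higher and a median of 0.17. Summed intensities of these 2 lists overlapped. For activated microglia they were 16482 to 23656 in severe and 13021 to 16876 in middle-aged mice. For microglia identity they were 7234 to 11036 and 5345 to 7405.

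Lyz1 encodes a lysozyme that cuts bacterial cell walls. It read 3708, 2436, 2226, 203 and 1931 in severe mice 1 to 5, against 28.9 to 225 with a median of 86.6 in middle-aged mice. The 4 severe females stood above every middle-aged mouse and the severe male did not. The difference was 3.71 ± 0.46, or 13-fold (adjusted p = 1.57e-06). This probe set is of a kind whose probes can be shared between genes, and Lyz2 is its neighbour on chromosome 10. Lyz2, the lysozyme of macrophages and microglia, rose by 1.43 ± 0.30 on a probe set without shared probes. Of the 2 other Lyz1 probe sets, 1 was called at 2.78 and 1 lay at -0.24.

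Mpeg1, a pore-forming protein that macrophages use against engulfed bacteria, read 2157, 2510, 2110, 427 and 2580 in severe mice 1 to 5, against 78.7 to 365 with a median of 280 in middle-aged mice. All 5 severe mice lay above all middle-aged mice. Its difference was 2.57 ± 0.27, a 5.94-fold rise (adjusted p = 9.95e-08). Cd68, a glycoprotein of phagocyte lysosomes, read 661, 713, 530, 252 and 527 in severe mice 1 to 5, against 131 to 239 in middle-aged mice. It rose by 1.33 ± 0.16 without overlap of the groups. Ptprc, the leukocyte antigen CD45, rose by the same amount (1.33 ± 0.16), and 4 of 5 severe mice exceeded the highest middle-aged value of 224.

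**Figure D2:**
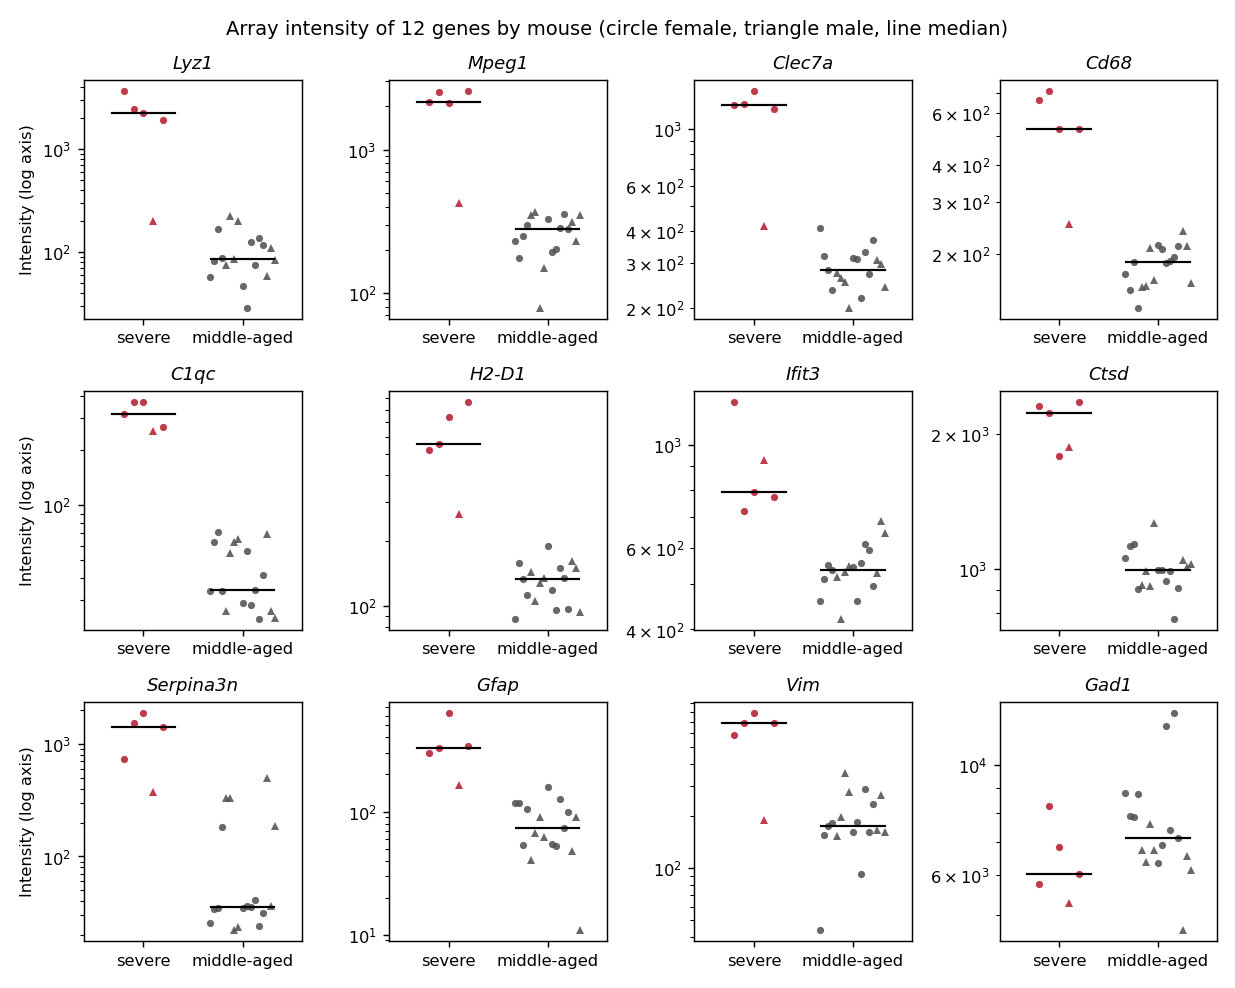
Intensity (log axis) of 12 genes in each mouse, severe left and middle-aged right, with circles for females, triangles for males and lines at medians. The severe male is the lowest red point for Lyz1, Mpeg1, Clec7a, Cd68, C1qc, H2-D1, Serpina3n, Gfap, Vim and Gad1.

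Tyrobp, the signalling adaptor of several microglial receptors, rose by 1.24 ± 0.18, with 257 to 903 in severe and 128 to 296 in middle-aged mice. Fcgr3, which binds antibody, was the called member among 6 Fc receptor genes and read 457, 570, 450, 369 and 452 in severe mice 1 to 5, against 148 to 269 in middle-aged mice. Its rise was 1.01 ± 0.15 (adjusted p = 3.68e-05), and the groups did not overlap. Its signalling chain Fcer1g differed by 0.78 ± 0.25 and was not called (adjusted p = 0.306). Laptm5, a lysosomal membrane protein of blood cells, rose by 1.35 ± 0.23 on a probe set with shared probes, while its 2 other probe sets lay at 0.03 and 0.54 and were not called.

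Among the activation genes, Gpnmb, a lysosomal glycoprotein of phagocytes filled with lipid, rose by 1.52 ± 0.28 to a median intensity of 351 in severe mice, against 70.3 in middle-aged mice. The tetraspanin Cd9 rose by 1.02 ± 0.18. Cst7, Lgals3, Lyz2, Ccl6 and Lpl were the remaining called members beside Clec7a and Tyrobp, with rises of 0.98 to 1.43. Of the resident identity genes, the fractalkine receptor Cx3cr1 read 1168, 1090, 891, 801 and 913 in severe mice 1 to 5, against 437 to 749 in middle-aged mice. It rose by 0.72 ± 0.14 with no overlap. Tgfbr1, a TGF-beta receptor that maintains microglial identity, rose by 0.70 ± 0.16. Other probe sets of these genes were not called, at -0.07 for Cx3cr1 and at -0.18 and 0.07 for Tgfbr1. The defining microglial genes P2ry12 and Tmem119 were not called, at 0.22 (95% interval -0.07 to 0.50) and 0.10 (-0.19 to 0.40). Csf1r, the receptor for the growth factor of microglia, differed by 0.47 ± 0.13 (adjusted p = 0.106).

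The defining markers of border and perivascular macrophages gave no call. Mrc1 differed by 0.22 ± 0.16, Cd163 by 0.03 ± 0.21, Lyve1 by 0.20 ± 0.42 and F13a1 by -0.01 ± 0.14, and none was called. Several markers of blood leukocytes were low in both groups. Cd3e of T cells read 35.4 to 144 in severe and 24.9 to 103 in middle-aged mice, Cd79a of B cells 63.8 to 119 and 63.8 to 162, and S100a8 of neutrophils 13.9 to 235 and 11.2 to 106. At the share of 0.629% called higher over all genes, short lists are likely to hold 0 calls. Called higher were 0 of 20 T and NK cell genes, 0 of 15 neutrophil and monocyte genes, and 1 of 15 B and plasma cell genes. The last was Tent5c, which adds adenosines to mRNA of secreted proteins in plasma cells. It read 658, 844, 755, 108 and 784 in severe mice 1 to 5, against 15 to 282 in middle-aged mice, a rise of 2.09 ± 0.47. The plasma cell genes Ighm and Jchain differed by -0.18 ± 0.12 and 0.18 ± 0.22. Ighm was not low, at 347 to 642 in severe and 502 to 772 in middle-aged mice.

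All 3 genes for the chains of C1q, the molecule that starts the classical complement pathway, rose. C1qc read 316, 367, 370, 256 and 268 in severe mice 1 to 5, against 23.7 to 71.0 with a median of 34.2 in middle-aged mice. The lowest severe value was thus well above the highest middle-aged value, and severe replicate 4 stood with the others. The difference was 2.50 ± 0.27, a 5.68-fold rise (adjusted p = 1.44e-07). C1qa rose by 1.94 ± 0.28 and C1qb by 1.66 ± 0.29, and the 2 other C1qb probe sets were called at 1.11 and 1.42. The 3 genes lie side by side on chromosome 4. C3ar1, the receptor for the complement fragment C3a, rose by 0.66 ± 0.14. The other 9 of 13 complement genes were not called, and the list median was -0.05.

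Promoters of 75 called genes were found in the RefSeq table (GRCm38.p6), each 300 bases long, from 250 before to 50 after the annotated start. They were searched on both strands for 7 short motifs. That of C1qc, at chr4:136892865-136893164 on the minus strand, is shown since it holds GAGGAAGT, a form of the site bound by PU.1, the factor that directs the myeloid lineage. The capitals mark it, in reverse complement, 195 to 188 bases before the start.
C1qc: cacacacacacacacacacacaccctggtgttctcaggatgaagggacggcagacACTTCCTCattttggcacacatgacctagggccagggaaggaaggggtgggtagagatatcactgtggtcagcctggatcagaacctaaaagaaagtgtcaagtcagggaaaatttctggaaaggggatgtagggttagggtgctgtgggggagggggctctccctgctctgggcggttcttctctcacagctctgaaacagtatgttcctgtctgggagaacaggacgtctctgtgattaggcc
This motif was found in 5 of the 75 promoters (C1qc, Cd53, Ctsc, Gusb and Mmp12) and in 3.36% of 9887 promoters of measured genes. A second form, AGAGGAAG, was found in 6 of 75 and 5.52% of all, and overlaps the other form by 7 letters. A match says that these letters are present and not that a factor binds there.

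Of 13 measured genes of antigen presentation by MHC class I, 4 were called higher and 9 were not called, with a list median of 0.31. The heavy chain H2-D1 read 522, 556, 740, 266 and 870 in severe mice 1 to 5, against 87.3 to 189 in middle-aged mice. The groups did not overlap, and the difference was 1.94 ± 0.20 (adjusted p = 8.14e-08). Its probes can take up RNA of near-identical class I genes. Of 8 other H2-D1 probe sets, 2 were called and 2 lay below 0, and H2-K1 rose by 0.56 ± 0.11 on its brightest set and differed by -0.16 to 1.54 on 3 others. B2m, the light chain that all class I molecules share, read 5628, 6585, 5570, 4690 and 4372 in severe mice 1 to 5, against 1547 to 3980 in middle-aged mice, and rose by 0.84 ± 0.16 without overlap. Psmb8, a peptidase of the immunoproteasome, rose by 1.46 ± 0.24, and its partner Psmb9 differed by 1.02 ± 0.28 without a call (adjusted p = 0.116).

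Class II presentation, the route used by professional antigen-presenting cells, had 1 of 7 genes called. H2-Aa rose by 1.03 ± 0.19, with 835, 286, 562, 280 and 548 in severe mice 1 to 5, against 164 to 255 in middle-aged mice. All 5 severe mice were above the middle-aged range, and replicates 2 and 4 only just. H2-Ab1 (1.11 ± 0.32, adjusted p = 0.165) and the invariant chain Cd74 (0.43 ± 0.14, adjusted p = 0.271) were not called, and other probe sets of H2-Ab1 lay at -0.29 and -0.08.

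Of 38 interferon-induced genes, 4 were called higher, 30 differed by more than 0, and the median was 0.20. Ifit3, which binds viral RNA together with its relatives, read 1237, 721, 791, 926 and 773 in severe mice 1 to 5, against 422 to 685 in middle-aged mice. It rose by 0.71 ± 0.11 with no overlap (adjusted p = 0.000115). Irgm1, a GTPase that acts on vacuoles with pathogens, read 364, 349, 411, 397 and 366 in severe mice, against 201 to 328 in middle-aged mice, and rose by 0.55 ± 0.13. These are genes for which severe replicate 4 was among the higher mice. Rtp4, a chaperone of receptors, rose by 1.38 ± 0.31 and the membrane protein Ifitm3, which blocks virus entry, by 0.88 ± 0.20, each with severe mice inside the middle-aged range. A second Rtp4 probe set lay at -0.21.

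The Ifit3 and B2m promoters are shown because both hold the core of the interferon-stimulated response element, GAAANNGAAA. The Ifit3 region is chr19:34583279-34583578 on the plus strand, with reverse-complement matches 156 to 147 and 122 to 113 bases before the start. The B2m region is chr2:122147437-122147736 on the plus strand, with this element 139 to 130 bases before the start and, 126 to 117 bases before it, GGGANTTTCC in reverse complement, a form of the NF-kappaB site. Capitals mark the matches.
Ifit3: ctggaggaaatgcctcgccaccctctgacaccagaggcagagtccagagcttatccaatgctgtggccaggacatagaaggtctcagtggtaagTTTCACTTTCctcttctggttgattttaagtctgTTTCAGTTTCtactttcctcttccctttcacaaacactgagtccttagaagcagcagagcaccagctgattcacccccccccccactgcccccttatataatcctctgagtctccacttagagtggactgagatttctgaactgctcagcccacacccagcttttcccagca
B2m: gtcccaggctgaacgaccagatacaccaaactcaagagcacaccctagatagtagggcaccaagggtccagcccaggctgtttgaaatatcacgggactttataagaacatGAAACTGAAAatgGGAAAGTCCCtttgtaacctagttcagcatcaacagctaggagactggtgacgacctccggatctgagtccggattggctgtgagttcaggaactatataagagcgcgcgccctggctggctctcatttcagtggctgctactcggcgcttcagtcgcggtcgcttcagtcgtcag
The first element was found in 6 of 75 promoters (B2m, Ifit3, Ifitm3, Irgm1, Rsad2 and Srgn) and in 3.84% of all 9887. The NF-kappaB form was found in 3 of 75 (Anxa4, B2m and Mdfic) and in 0.597% of all.

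Lysosomal genes had 7 of 34 called higher, 30 of 34 above 0 and a median of 0.25. Cathepsin D, Ctsd, an abundant aspartic protease, read 2301, 2225, 1787, 1872 and 2356 in severe mice 1 to 5, against 775 to 1265 with a median of 997 in middle-aged mice. All severe mice stood above the middle-aged range, and replicate 4 was not the lowest. The rise was 1.03 ± 0.13, or 2.04-fold (adjusted p = 2.44e-06). The cysteine cathepsins Ctsh and Ctsz rose by 1.26 ± 0.16 and 0.96 ± 0.17. Ctsc, Gusb, Grn and Cd68 completed the called set. The Ctsd promoter was the only 1 of 75 with TCACGTGA, the core of the CLEAR element of lysosomal genes, which 1.76% of all promoters hold.

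Lipid handling had 2 of 12 genes called, with a median of 0.33. Abca1, the pump that exports cholesterol to apolipoproteins, read 2416, 1914, 1860, 1992 and 1779 in severe mice 1 to 5, against 1090 to 1657 in middle-aged mice, and rose by 0.61 ± 0.10 without overlap. Its 2 other probe sets lay at -0.30 and -0.08. Lpl, lipoprotein lipase, rose by 0.98 ± 0.23, while a second Lpl probe set lay at 0.05 and was not called. Ch25h, which makes 25-hydroxycholesterol, differed by 0.72 ± 0.18 and missed the threshold (adjusted p = 0.0656).

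Few signalling proteins passed the test. Among 30 chemokine genes, Ccl3 and Ccl6, neighbours on chromosome 11 that attract leukocytes, rose by 1.44 ± 0.24 and 1.16 ± 0.25. Ccl3 stayed dim at 103, 99.1, 134, 50 and 64.3 in severe mice 1 to 5, against 7.08 to 49.7 in middle-aged mice. Ccl2, which attracts monocytes, differed by -0.70 ± 0.23 without a call (adjusted p = 0.365). Among 35 cytokine genes, the called ones were Tgfbr1 and Osmr. Osmr, the receptor for oncostatin M, rose by 1.10 ± 0.20, while a second Osmr probe set lay at 0.07 and was not called.

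Reactive astrocyte genes were the other block, with 6 of 26 called higher, 21 of 26 above 0 and a median of 0.54. Serpina3n, a secreted protease inhibitor of reactive astrocytes, read 741, 1539, 1885, 376 and 1418 in severe mice 1 to 5. In middle-aged mice it read 22.2 to 41.3 in 12 animals and 183 to 495 in 5, of which 4 were labelled male and the fifth was replicate 4. Only the severe male fell within the middle-aged range. The difference was 3.70 ± 0.51, or 13-fold (adjusted p = 1.2e-05). Chil1, a chitinase-like protein secreted by reactive astrocytes, read 678, 936, 771, 470 and 911 in severe mice 1 to 5, against 180 to 381 in middle-aged mice, and rose by 1.34 ± 0.16 (adjusted p = 1.08e-06) without overlap.

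Gfap, the astrocyte intermediate filament, read 299, 326, 632, 166 and 343 in severe mice 1 to 5, against 10.9 to 159 with a median of 73.4 in middle-aged mice. The severe male lay just above the highest middle-aged mouse. The rise was 1.85 ± 0.28 (adjusted p = 7.92e-05), and a second Gfap probe set differed by 0.58 without a call. Vim, vimentin, read 590, 692, 788, 189 and 691 in severe mice 1 to 5, against 44.0 to 355 in middle-aged mice. It rose by 1.47 ± 0.35 (adjusted p = 0.0368), and its 2 other probe sets were called at 1.44 and 1.46. Its call was lost under 11 of 37 alternatives, with adjusted p up to 0.176. These were the 3' to 5' ratio as a covariate, leaving out any 1 of the 4 severe females, and leaving out middle-aged replicate 2, 3, 4, 9, 11 or 13. Without the severe male the difference was 1.85. S100a6, a calcium-binding protein of astrocytes, rose by 1.11 ± 0.20.

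The Gfap promoter, at chr11:102897151-102897450 on the minus strand, is shown since it holds TTCCNGGAA, the form of the site bound by STAT factors, which act downstream of receptors such as Osmr. The match, in capitals, begins 2 bases before the annotated start.
Gfap: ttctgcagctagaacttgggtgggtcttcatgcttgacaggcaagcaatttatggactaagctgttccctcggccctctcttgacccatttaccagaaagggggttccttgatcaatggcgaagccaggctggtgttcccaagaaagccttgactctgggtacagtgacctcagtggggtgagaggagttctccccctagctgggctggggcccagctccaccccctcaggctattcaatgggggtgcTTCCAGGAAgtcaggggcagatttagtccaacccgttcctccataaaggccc
The motif was found in 3 of 75 promoters of called genes (Gfap, Mgst1 and Pros1) and in 1.35% of all promoters. The last motif searched, CCTAGCAAC, a form of the X box of MHC class II genes, was in 0 of 75 and in 0.89% of all.

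Genes of resting astrocytes had 0 of 18 called and a median of 0.02. The water channel Aqp4 differed by 0.45 ± 0.15 (adjusted p = 0.382), and the glutamate transporter Slc1a2 by -0.26 ± 0.16.

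**Figure D3:**
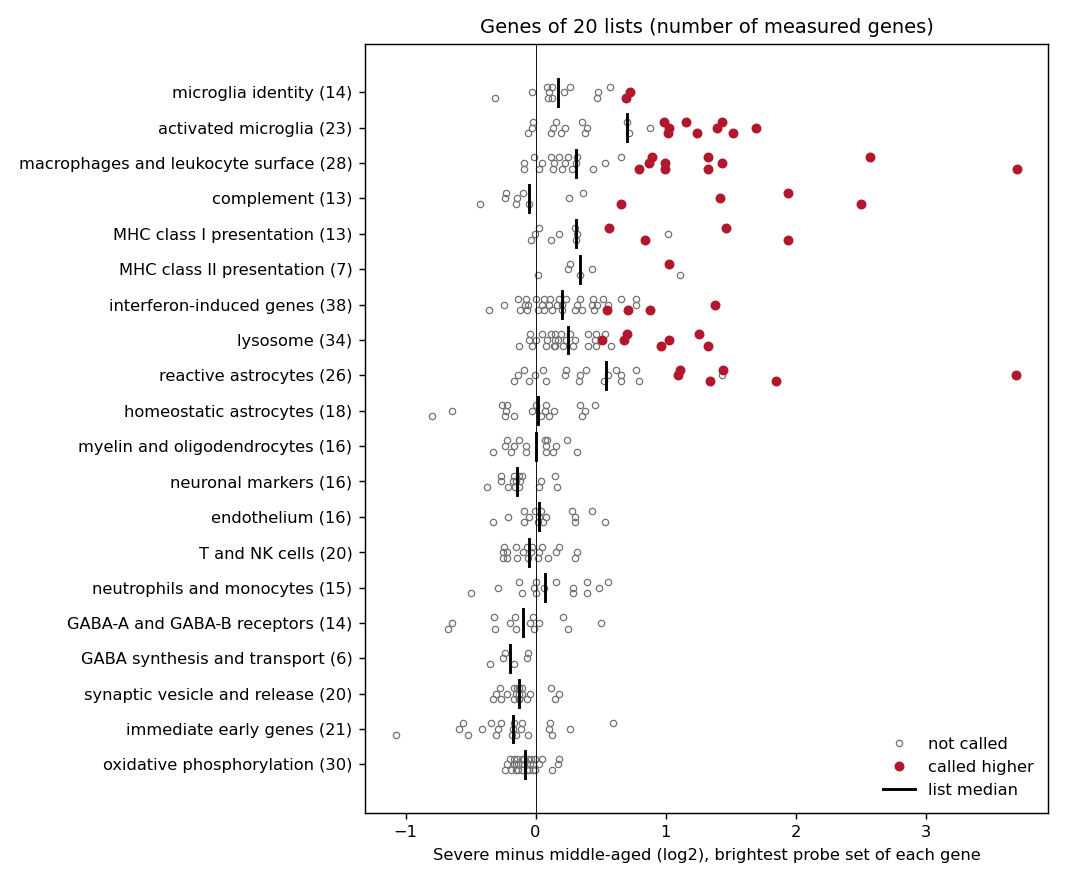
Difference between severe and middle-aged mice (x axis, log2) for each measured gene of 20 lists (rows), with called genes filled and list medians as bars. Called genes lie in the 9 upper rows, from microglia identity to reactive astrocytes, and the 11 rows below hold none.

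A further set of called genes belonged to no list, 28 of the 78 called on their brightest probe set. The following were chosen after their values were seen. Cyba, a subunit of the phagocyte oxidase, rose by 2.25 ± 0.42, with 138 to 351 in severe and 7.02 to 120 in middle-aged mice. Siglecf, a sialic acid receptor of immune cells, rose by 1.4 ± 0.23 and Igsf6, an immunoglobulin-type receptor of myeloid cells, by 1.24 ± 0.17, both from dim levels. A2m, an inhibitor of many proteases, rose by 1.08 ± 0.15 and Fxyd1, a regulator of the sodium pump, by 1.67 ± 0.31. The phospholipase Plce1 read 1302, 1478, 1483, 1380 and 1247 in severe mice, against 628 to 1130 in middle-aged mice, and rose by 0.72 ± 0.11 (adjusted p = 4.49e-05).

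Among 23 clustered protocadherins and cadherins, adhesion molecules that give neurons an identity, the called one was Pcdhb9. It read 1838, 2138, 2485, 1744 and 2213 in severe mice 1 to 5, against 1167 to 1714 in middle-aged mice, and rose by 0.50 ± 0.11 (adjusted p = 0.0173). Cdkn1a, the cell cycle inhibitor p21, read 333, 517, 308, 1704 and 444, with the severe male highest, against 134 to 365 in middle-aged mice. It differed by 1.09 ± 0.29 and was not called (adjusted p = 0.0998), and 0 of 17 genes of the p53 response were called. The metal-binding protein Mt2 differed by 0.74 ± 0.21 (adjusted p = 0.122), and 0 of 21 antioxidant and iron genes were called.

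Neuronal genes gave no call in either direction. Over all genes 0.629% were called higher, so the lack of calls does not set these lists apart. The median was -0.14 over 16 neuronal markers, -0.13 over 20 genes of synaptic vesicles and release, -0.11 over 17 glutamate receptors and transporters and -0.09 over 33 voltage-gated channels. Snap25, a protein of vesicle fusion, differed by -0.26 (95% interval -0.73 to 0.20), the nuclear marker Rbfox3 by -0.16 (-0.51 to 0.19) and the neurofilament chain Nefl by -0.37 (-0.64 to -0.10, adjusted p = 0.475). Oligodendrocyte genes gave 0 of 16 calls, with myelin basic protein Mbp at -0.33 (-0.88 to 0.22). Its 7 other probe sets ranged from -1.68 to 0.11, and 0 of them were called. Immediate early genes, which neurons transcribe after activity, had a median of -0.17 over 21 genes. Arc read 18.6 to 169 in severe mice, against 48.5 to 280 in middle-aged mice, and differed by -1.07 ± 0.39 (adjusted p = 0.498), and Fos by -0.59 ± 0.27 (adjusted p = 0.758).

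The study's title names GABA receptors, through which most inhibition in the brain acts. Of 14 measured GABA receptor genes 0 were called, with a median of -0.10, while 0.629% of all genes were called higher. Gabrb1 differed by -0.01 (95% interval -0.24 to 0.22), Gabrg1 by 0.21 (-0.09 to 0.51), Gabra2 by -0.64 (-1.18 to -0.11, adjusted p = 0.643) and Gabra6 by -0.67 (-1.92 to 0.58). Gabra6, a subunit of cerebellar granule cells, read 78.8 to 6554 in middle-aged mice, so that it marked cerebellar RNA on some of these arrays. Without the 3 arrays of the study with such signal (middle-aged replicates 7 and 8 and young replicate 2) 114 probe sets were called higher. On their brightest probe sets, all 6 measured genes of GABA synthesis and transport differed by less than 0, with a median of -0.20 and no call. Over all genes 44.3% differed by more than 0, so values below 0 were common. Gad1, the main enzyme that makes GABA, differed by -0.25 (-0.59 to 0.09), Gad2 by -0.23 (-0.58 to 0.11) and the vesicle transporter Slc32a1 by -0.35 (-0.74 to 0.04). Second probe sets of Gad1 and Slc32a1 lay at 0.01 and 0.42.

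Other cells of the tissue gave no calls. These were 0 of 16 endothelial genes and 0 of 11 of pericytes and smooth muscle. Meningeal fibroblasts and collagens gave 0 of 23 and choroid plexus 0 of 12. The lists for proliferation and oxidative phosphorylation, which mark no cell type, had 0 of 25 and 0 of 30 called. Over all genes 0.629% were called higher on their brightest probe set. At that share a list of this size is likely to hold 0 calls, here and for the other lists without calls. Ttr of choroid plexus read 64.4 to 2633 in severe and 2.38 to 924 in middle-aged mice. Of the meningeal markers, Igf2 read 71.1 to 922 in severe and 42.8 to 748 in middle-aged mice, Dcn 252 to 436 and 222 to 521, and Col1a1 103 to 350 and 164 to 314. The part of these cells in the results was not tested.

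No probe set of the brighter 60% was called lower. The 5 genes with the smallest p among those lower in severe mice were not called. Rgs4, which shortens signals of G protein-coupled receptors, read 337, 586, 958, 302 and 505 in severe mice 1 to 5, against 605 to 1231 in middle-aged mice. It differed by -0.77 ± 0.20 (adjusted p = 0.0656), with 4 of 5 severe mice below every middle-aged mouse. Elmo1, an engulfment adaptor, differed by -0.44 ± 0.11, the actin-binding protein Cap2 by -0.48 ± 0.13, Ripor1 by -0.35 ± 0.09 and the receptor chain Csf2ra by -0.49 ± 0.13, with adjusted p from 0.0753 to 0.110. Under some alternatives calls were gained, by Elmo1 under 6 of 37, Rgs4 under 5, Cap2 under 2 and Csf2ra under 1. A second Elmo1 probe set lay at 0.33. The probe set called lower was Ifna2, an interferon gene, named after its values were seen. It was dim, with 23.3, 42.5, 24.1, 27.9 and 24.7 in severe mice 1 to 5, against 33.1 to 266 in middle-aged mice, and differed by -1.51 ± 0.36 (adjusted p = 0.0382). Its call was lost under 19 of the 36 alternatives that gave it a value.

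The 5 severe mice were not alike. Over the 109 probe sets called higher, the median excess over the middle-aged mean was 1.23, 1.03, 1.22 and 1.03 in females 1, 2, 3 and 5, and 0.43 in the male, replicate 4. The male was the lowest of the 5 at 80 of the 109 and the highest at 1. The 4 females lay above all 17 middle-aged mice at 85 of the 109, and all 5 severe mice did so at 35. Over all 22626 probe sets these counts were 108 (0.477%) and 38 (0.168%), and the 109 had been selected for being higher in severe mice. The male lay above the mean of the middle-aged males at 94 of the 109, with a median excess of 0.44, while the females exceeded the middle-aged females by a median of 1.12. Without the male 124 probe sets were called higher.

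**Figure D4:**
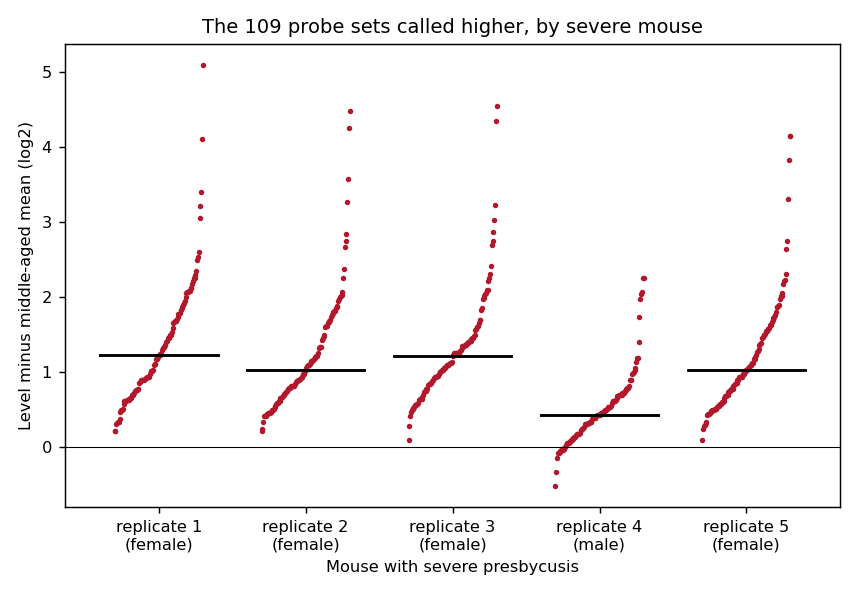
Level minus middle-aged mean (y axis, log2) of the 109 probe sets called higher, sorted within each severe mouse (x axis), with medians as lines. Replicate 4, the male, has a median of 0.43, and the 4 females lie between 1.03 and 1.23.

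A sex by group interaction, added after this mouse was seen to be low, compares the severe male's excess over middle-aged males with the females' excess. It has 1 severe male, assumed to vary like the other mice, so its p-values are no independent evidence. It was called at 12 probe sets (0.053%), of which 2 were among the 109, Lyz1 at -3.83 ± 0.66 (adjusted p = 0.00503) and Srgn, a proteoglycan of secretory granules, at -1.58 ± 0.31 (adjusted p = 0.0334). With 1 male in the group, sex and this mouse cannot be told apart. The array names of severe replicates 3 (suffix 1) and 4 (suffix e) carry a suffix whose meaning is not given. So do those of middle-aged replicates 2, 9 and 10 (b), mild replicates 7 and 8 (b) and young replicate 3 (1). With the presence of any suffix as a covariate 117 probe sets were called higher. Suffix e is on severe replicate 4 alone, so this covariate cannot separate it from that mouse. Among 48 named called genes, 34 stayed called under every alternative that gave them a value. That was all 37 for 13 of these genes and at least 35 for the others, whose probe sets some filters left out. The 14 that lost the call under at least 1 were Tent5c, Vim, Lyz2, Rtp4, Cx3cr1, Tgfbr1, C3ar1, H2-K1, Irgm1, Ifitm3, Ccl6, Lpl, Pcdhb9 and Ifna2, in most cases when a severe mouse was left out.

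Mice with mild presbycusis were set beside these groups for the same genes, in comparisons that share the middle-aged or the severe arrays. Against middle-aged mice, mild mice had 25 probe sets called higher (0.11%) and none lower, with 930 at unadjusted p under 0.05. Severe against mild gave 0 calls by limma (0.0%), with 843 probe sets at unadjusted p under 0.05. Clec7a read 186 to 328 in young, 201 to 412 in middle-aged, 297 to 972 in mild and 418 to 1415 in severe mice. It differed by 0.77 ± 0.13 between mild and middle-aged mice and by 0.93 ± 0.18 between severe and mild mice (adjusted p = 0.0764). For Mpeg1 the 2 differences were 1.19 ± 0.22 and 1.38 ± 0.30, and for C1qc 1.51 ± 0.22 and 0.99 ± 0.30. For Serpina3n they were 1.22 ± 0.41 and 2.48 ± 0.56. The mild against middle-aged difference was called for Clec7a, Mpeg1 and C1qc and not for Serpina3n (adjusted p = 0.754).

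Psmb8 differed by 1.56 ± 0.19 between mild and middle-aged mice and by -0.10 ± 0.26 between severe and mild mice, with intensities of 83.4 to 214 in mild and 66.8 to 197 in severe mice. Rtp4 differed by 1.36 ± 0.25 and 0.02 ± 0.34, Ifit3 by 0.54 ± 0.09 and 0.17 ± 0.12, and H2-D1 by 1.46 ± 0.16 and 0.49 ± 0.22. None of the severe against mild values of these genes passed the test, while their mild against middle-aged differences were called. Pcdhb9 read 713 to 1229 in young, 1167 to 1714 in middle-aged, 1553 to 2399 in mild and 1744 to 2485 in severe mice, so it was already higher in middle-aged than in young mice (0.58 ± 0.09, adjusted p = 0.0073).

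**Figure D5:**
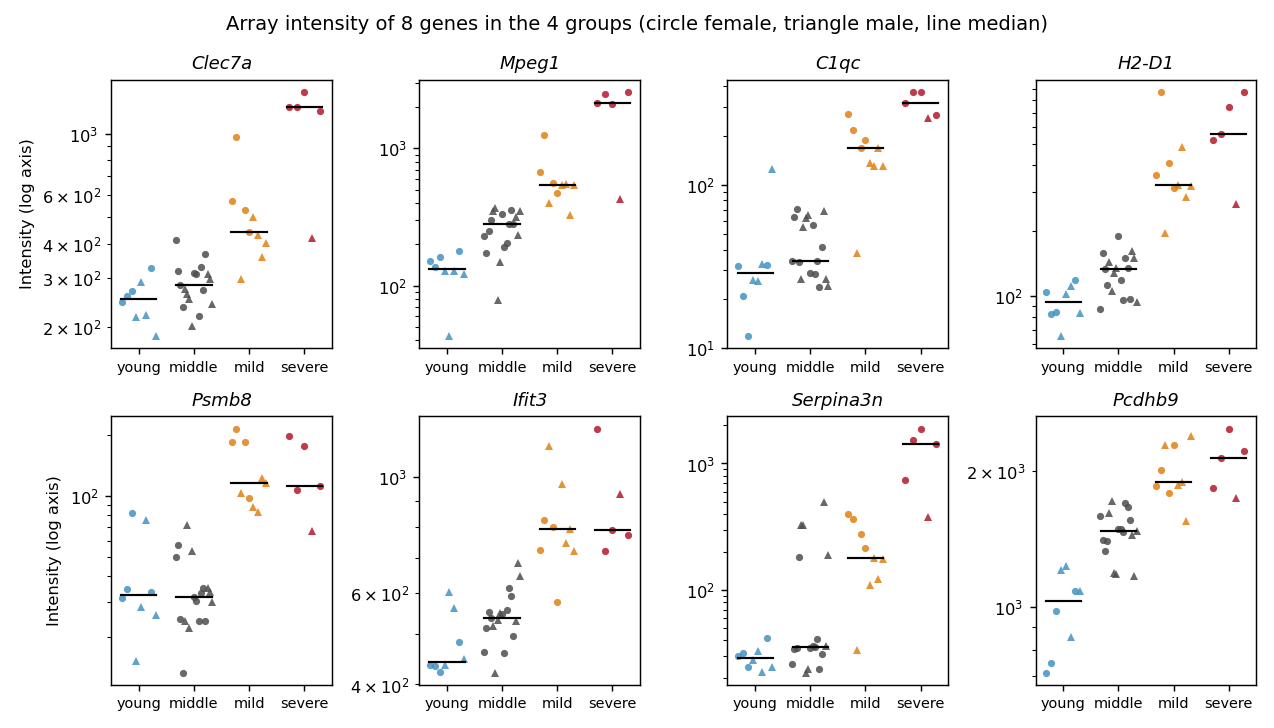
Intensity (log axis) of 8 genes in young, middle-aged, mild and severe mice (x axis), with circles for females, triangles for males and lines at medians. Clec7a, Mpeg1 and Serpina3n have their highest median in severe mice, while the medians of Psmb8 and Ifit3 in mild and severe mice lie close together.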

How the data were processed

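Each of the 39 mice gave 1 Affymetrix MOE430A array of inferior colliculus RNA, labelled with biotin, per the labels' protocols. The deposited values are linear intensities, 1 per probe set and array, and the authors' algorithm is not stated in the labels. Trimmed means (2% left out at each end) were 500.101 to 500.198 on these arrays, so the authors' values share a common scale. The 22690 probe sets include 64 controls, which were not tested. The annotation names 20380 of the rest by 1 symbol (12393 genes), 691 by several and 1555 by none. A second deposited table, by the authors, holds RMA intensities of 33 probe sets and served as an alternative for GABA genes. The files hold 249 more per-sample columns, which were left aside.

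Values were analysed as log2(intensity + 16). With limma 3.58.1 (R 4.3.3), a model of group and sex was fitted over the 39 arrays, with residual df 34, prior df 5.58, a variance trend, 2-sided tests, Benjamini-Hochberg adjustment over 22626 probe sets and 95% intervals. Lists (46, with 816 of 967 entries measured) were described with 1 probe set a gene, the brightest. Named are the 15 largest called rises, and up to 10 falls, among probe sets in the brighter 60% (or the 5 smallest p where none was called), up to 4 genes per list by p, defining markers, Gfap, Vim, Clec7a and 7 GABA genes; 1 further gene of the rule is not reported here. Members, lists and alternatives were chosen with earlier results of these data known. The fit was tested on simulated data. The alternatives were another normalization (quantile, median centring), pseudocounts of 1 and 64, a filter on dim probe sets, other covariates, other array sets, other variance models, plain probe sets only and leaving out each severe and middle-aged mouse. Mouse numbers are unique, so no replicates are paired. Promoters are from RefSeq (GRCm38.p6); array files name no genome build, and none was needed for the values.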

Additional observations from a re-analysis of the deposited data

Results flagged for a closer look

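In 83 named genes the 5 severe mice were searched for a mouse far from the others (the gap to the nearest mouse over the range, on the log2 scale, above 0.71). Chance flags about 1 group in 20. The 83 genes share the same 5 mice, so their flags are not independent and cannot be set against that rate. The search marked 12 genes, and in 8 of these the severe male, replicate 4, stood apart at the low end: Lyz1 at 203, Mpeg1 at 427, Tent5c at 108, Clec7a at 418, Vim at 189, Laptm5 at 335, Ctsh at 299 and Ctsz at 316. Csf1r stood apart at the high end in severe replicate 3 at 5953, and Mrc1 in replicate 1 at 333. Elmo1 was low in replicate 1 at 768, and Ifna2 was high in replicate 2 at 42.5.

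For Lyz1 the excess of the 1 severe male over middle-aged males, minus that of the females, was -3.83 (adjusted p = 0.00503). The test was added after this mouse was seen to be low and assumes that it varies like the others, so sex and this mouse cannot be told apart. Without middle-aged replicate 4, whose transcripts go against its sex label, it was -3.84 (adjusted p = 0.00722).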

How the results depend on the processing

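The 110 calls, 109 higher and 1 lower, were recomputed under 37 alternatives, all with limma. With plain probe sets only, 68 were called, 67 of them higher; fewer probe sets were tested there. Leaving out 1 mouse at a time gave 73 to 130 calls, 70 to 124 of them higher and 0 to 6 lower, with the fewest without severe replicate 1 and the most without severe replicate 4. The other alternatives kept the count of calls within 1.5 times of 110. Called lower were 4 with quantile normalization and with a pseudocount of 1, 3 with the 3' to 5' ratio as a covariate, with females only and with array weights, 2 without the sex covariate and without the variance trend, and 0 with a pseudocount of 64, without the dimmest probe sets and without the arrays with cerebellar signal; the cause was not tested. Of 48 named called genes, 34 kept the call wherever they had a value (35 to 37 alternatives). Of 35 not called, 9 gained it under some alternative: Ch25h under 10, Elmo1 under 6, Rgs4 under 5, Cap2 and H2-Ab1 under 2, and Psmb9, Aqp4, Cdkn1a and Csf2ra under 1. Cd163, Lyve1, F13a1 and Gabrb1, all uncalled and near 0, changed sign. Cd163 was -0.03 without the sex covariate and -0.06 to 0.10 with a mouse left out, and Lyve1 -0.03 to 0.45 with a mouse left out. F13a1 was 0.03 with quantile normalization, 0.02 with arrays centred, 0.01 with females only or with only severe and middle-aged arrays, and -0.13 to 0.09 with a mouse left out. Gabrb1 was 0.05 with quantile normalization, 0.02 with arrays centred or weighted, 0.06 with the 3' to 5' ratio, 0.12 in the authors' RMA table, and -0.08 to 0.07 with a mouse left out. The complement median was 0.04 with the mean over a gene's probe sets. No paired analysis was possible because each mouse has its own number. The 5 severe arrays, 1 of them from a male, limit the precision.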
